A study of Homo sapiens with 6 samples.

Results

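TP63, SOX4, SOX9, GATA3, ELF3, GRHL2, GRHL3, SNAI2, ZEB1 and TFAP2A are transcription factors that specify basal or luminal mammary epithelium, hold the epithelial state or act in the epithelial-mesenchymal transition (EMT). The 10 genes were picked by name and found through their Entrez IDs, and all 10 were present among the 23459 genes of the count table. All 10 also passed the filter on low counts, which left 12510 genes for testing. The table came from 3′ mRNA-Seq of MCF10A, an untransformed human mammary epithelial line that the descriptions mark as wild type (WT), grown in medium with horse serum, EGF, insulin, hydrocortisone and cholera toxin. One group of 3 libraries was from cells given 20 nM control siRNA (siCtrl), and the other group of 3 was from cells given 20 nM siRNA against both YAP and TAZ (siYAP/TAZ). YAP is encoded by YAP1 and TAZ by WWTR1. All 6 libraries thus came from transfected cells of the same line, and the labels used here give no time after transfection.

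The mammary gland has an outer basal layer, whose identity depends on p63, and an inner luminal layer, whose differentiation depends on GATA3. ELF3 is an epithelium-specific ETS factor. Grainyhead-like and AP-2 factors maintain epithelial gene expression, whereas SNAI2 and ZEB1 repress epithelial genes, the E-cadherin gene among them, and are inducers of EMT. YAP and TAZ are co-activators that bind DNA through the TEAD transcription factors.

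Library totals ranged from 3175149 to 4317286 counts, so 3 counts corresponded to between 0.695 and 0.945 CPM, that is, counts scaled to a common library size. Levels are CPM with library sizes scaled by the trimmed mean of M values (TMM), fold changes are log2 of siYAP/TAZ over siCtrl from edgeR, and a gene passed the test when its adjusted p over all tested genes was under 0.05. YAP1 was at 189, 204 and 210 CPM in siCtrl replicates 1, 2 and 3 and at 116.5, 118 and 112 CPM in siYAP/TAZ, so that 57.5% of the mean remained (edgeR, adjusted p = 0.0138). WWTR1 was at 109, 109 and 102 CPM against 70.5, 67.1 and 59.8 CPM, and 61.8% remained (edgeR, adjusted p = 0.0311). With 1 library left out, the targeted genes kept log2 fold changes of -0.84 to -0.77 for YAP1 and -0.75 to -0.62 for WWTR1. YAP1 then missed the threshold when siCtrl replicate 3 or either of siYAP/TAZ replicates 2 and 3 was left out (edgeR, adjusted p from 0.0606 to 0.112), and WWTR1 missed it without any library other than siCtrl replicate 2 (edgeR, adjusted p from 0.0602 to 0.176). The groups follow the sample description, which is also the name of the data column. The title and the genotype entry of 2 libraries, replicate 2 of each group, both give the opposite group, and both targeted transcripts followed the description in these 2 libraries. The titles also give other replicate numbers for these 2 libraries, for siCtrl replicate 3 and for siYAP/TAZ replicate 1. All replicate numbers used here, and the block and pairs built on them, follow the description. The keratins and adhesion genes that mark MCF10A were present in both groups, with KRT5 at a mean of 912 CPM in siCtrl and 661 CPM in siYAP/TAZ, KRT17 at 243 and 169 CPM, CDH1 at 119 and 141 CPM, EPCAM at 128 and 91.1 CPM and KRT14 at 37.9 and 32.0 CPM. None of these 5 passed the edgeR test without the replicate number as a block. KRT5 and EPCAM passed it lower with the block, and KRT5 also passed lower by DESeq2 (adjusted p = 0.0384).

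By edgeR, 0 of the 10 factors passed the test, where 1.96% of all tested genes did, 1.22% lower and 0.743% higher. At an unadjusted p under 0.05 there were 4 of 10, namely SOX4, TP63 and ELF3 on the higher side and TFAP2A on the lower, where 17.7% of all genes lay under it, 8.4% on the higher side and 9.27% on the lower. DESeq2 also passed 0 of 10, where it passed 4.37% of all genes, and put 2 of 10 and 14.5% of all genes under an unadjusted p of 0.05. Same-numbered libraries of both groups tended to deviate from their group means together, though only weakly for replicate 3. A fit with the replicate number as a block passed 3 of 10, all higher in siYAP/TAZ: SOX4, ELF3 and TP63. That fit passed 10.1% of all genes, with 4.66% on the higher side and 5.44% on the lower. The median log2 fold change of the 10 factors was 0.35, and 0.34 without siCtrl replicate 2. For all genes tested the median was -0.00093, with quartiles of -0.23 and 0.23. The 10 factors were chosen with earlier results known, and their median was not followed over the other settings. Because the RNA was from bulk cultures, fewer cells that express a gene and less of its RNA per cell cannot be told apart.

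**Figure D1:**
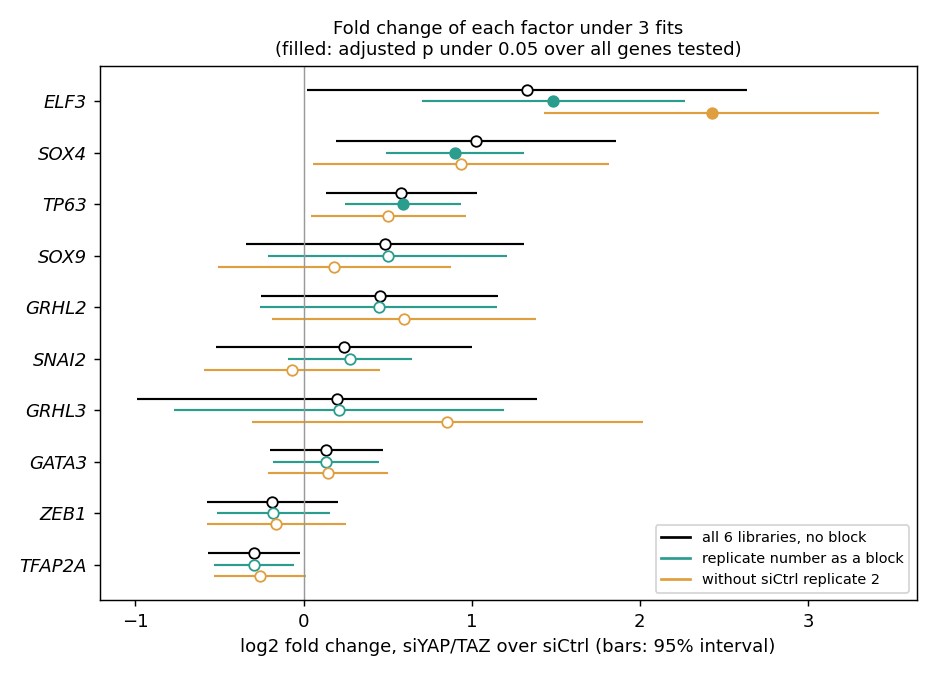
log2 fold change (siYAP/TAZ over siCtrl, horizontal axis) of each factor with its 95% interval from edgeR in 3 fits: all 6 libraries without a block, the replicate number as a block, and without siCtrl replicate 2. Filled points passed the test: ELF3, SOX4 and TP63 with the block, and ELF3 alone without siCtrl replicate 2.

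The windows upstream of the start are shown for the 3 factors that passed the blocked fit. They are the 250 bases before the first transcribed base in RefSeq on GRCh38.p14, with 1 window for each of these 3 genes in the table used. For SOX4 the window is chr6:21593501-21593750 on the plus strand, for ELF3 it is chr1:202010337-202010586 on the plus strand, and for TP63 it is chr3:189631139-189631388 on the plus strand. Capitals mark a match to one of 5 searched motifs.
SOX4: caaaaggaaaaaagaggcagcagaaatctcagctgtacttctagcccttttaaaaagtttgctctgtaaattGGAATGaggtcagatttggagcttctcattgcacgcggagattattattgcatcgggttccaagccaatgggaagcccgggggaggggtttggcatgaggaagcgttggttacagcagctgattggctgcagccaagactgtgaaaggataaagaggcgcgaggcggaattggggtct
ELF3: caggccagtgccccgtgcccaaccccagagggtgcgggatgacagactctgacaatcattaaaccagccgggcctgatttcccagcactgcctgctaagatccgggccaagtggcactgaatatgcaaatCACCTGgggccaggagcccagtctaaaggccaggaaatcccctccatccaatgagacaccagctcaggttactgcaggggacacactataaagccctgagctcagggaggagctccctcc
TP63: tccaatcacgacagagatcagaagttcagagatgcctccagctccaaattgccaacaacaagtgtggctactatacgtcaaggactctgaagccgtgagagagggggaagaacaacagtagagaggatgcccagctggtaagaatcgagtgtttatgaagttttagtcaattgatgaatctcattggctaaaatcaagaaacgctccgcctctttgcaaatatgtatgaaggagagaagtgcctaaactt
The capitals in SOX4 are the TEAD motif GGAATG, 178 bases before the start. Those in ELF3 are CACCTG, the reverse strand of CAGGTG, the E2-box that SNAI2 and ZEB1 recognize, 120 bases before the start. The TP63 window held none of the 5 motifs. No other start of TP63 was searched, so this says nothing about a start further inside the gene.

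Searched on both strands of all 35116 RefSeq windows of this length, GGAATG was in 11.9%, the E2-box CAGGTG in 17.5%, the AP-1 motif TGANTCA in 6.57%, the AP-2 motif GCCNNNGGC in 19.8% and the Grainyhead motif AACCNGTT in 1.49%. The table held 20 windows for 7 of the factors (ELF3, GATA3, GRHL3, SOX4, TFAP2A, TP63 and ZEB1). GGAATG was in 2 of the 20 windows, one of SOX4 and one of GATA3, and the E2-box was in 4, of ELF3, GRHL3 and ZEB1. The AP-2 motif was in 4 windows, of GATA3 and GRHL3, the AP-1 motif in 1 of GATA3, and the Grainyhead motif in 0. A match of letters is not a site of binding, and the 3′ counts do not tell which start a transcript used.

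TP63, the basal lineage factor, lies on chromosome 3 (GRCh37, chr3:189349178-189615065, plus strand). It was at 40.8, 43.5 and 62.8 CPM in siCtrl replicates 1, 2 and 3 and at 61.4, 85.3 and 74.5 CPM in siYAP/TAZ replicates 1, 2 and 3. Each siYAP/TAZ library was above the siCtrl library of its number, while the lowest siYAP/TAZ value lay just under the highest siCtrl value, so the groups overlapped. Means were 49.0 ± 12.0 and 73.7 ± 11.95 CPM (SD, n = 3 each), and the log2 fold change was 0.58 with an SE of 0.20 and a 95% interval of 0.13 to 1.03 (edgeR, adjusted p = 0.177). With the replicate block the change was 0.59, SE 0.16, and TP63 passed the test (edgeR, adjusted p = 0.0379). Without both libraries whose titles conflict it was 0.39 and did not pass. The count sums all TP63 transcripts that share the 3′ end counted, so the long and the amino-terminally shortened forms were not told apart.

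SNAI2, the EMT repressor also known as Slug and a factor of basal cells, lies at chr8:49830157-49834299 (GRCh37, minus strand). Its levels were 65.2, 29.0 and 77.4 CPM with siCtrl against 59.8, 49.6 and 93.8 CPM with siYAP/TAZ. In both groups replicate 2 was the lowest and replicate 3 the highest, and the groups overlapped over most of their range. The means of 57.2 ± 25.2 and 67.7 ± 23.2 CPM gave a log2 fold change of 0.24 with an interval of -0.52 to 1.00 (edgeR, adjusted p = 0.763). With the block the change was 0.28 and the adjusted p from edgeR 0.336, and it was -0.069 when siCtrl replicate 2 was left out and -0.063 when siYAP/TAZ replicate 3 was.

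SOX4, an SRY-related factor of progenitor cells that is also linked to EMT, lies at chr6:21593982-21598850 (GRCh37, plus strand). It was at 52.8, 52.5 and 74.9 CPM with siCtrl against 76.4, 78.7 and 212 CPM with siYAP/TAZ. The groups did not overlap, although the gap between them was narrow and siYAP/TAZ replicate 3 stood far above the other libraries. Means were 60.1 ± 12.8 and 122 ± 77.7 CPM, and the log2 fold change was 1.02 with an SE of 0.37 and an interval of 0.19 to 1.86 (edgeR, adjusted p = 0.199). Without siYAP/TAZ replicate 3 the change was 0.37 (edgeR, adjusted p = 0.565), and without both libraries with conflicting titles it was 1.17 and did not pass. With the block the change was 0.90, SE 0.18, and SOX4 passed the test (edgeR, adjusted p = 0.0127). Within pairs of the same number, siYAP/TAZ was 1.45 times siCtrl for replicate 1 and 2.83 times for replicate 3, with replicate 2 close to replicate 1.

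SOX9, a further SRY-related factor with a role in luminal progenitors, lies at chr17:70117161-70122557 (GRCh37, plus strand). It was near the lower end of what these libraries measure, at 7.18, 2.78 and 6.78 CPM with siCtrl against 9.52, 6.94 and 7.07 CPM with siYAP/TAZ, from 9 to 42 counts a library. The siYAP/TAZ library was the higher one in all 3 pairs, yet the lowest siYAP/TAZ library lay under the highest siCtrl library. The log2 fold change of 0.49 had an interval of -0.34 to 1.31 (edgeR, adjusted p = 0.536), and without siCtrl replicate 2 the change was 0.18.

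**Figure D2:**
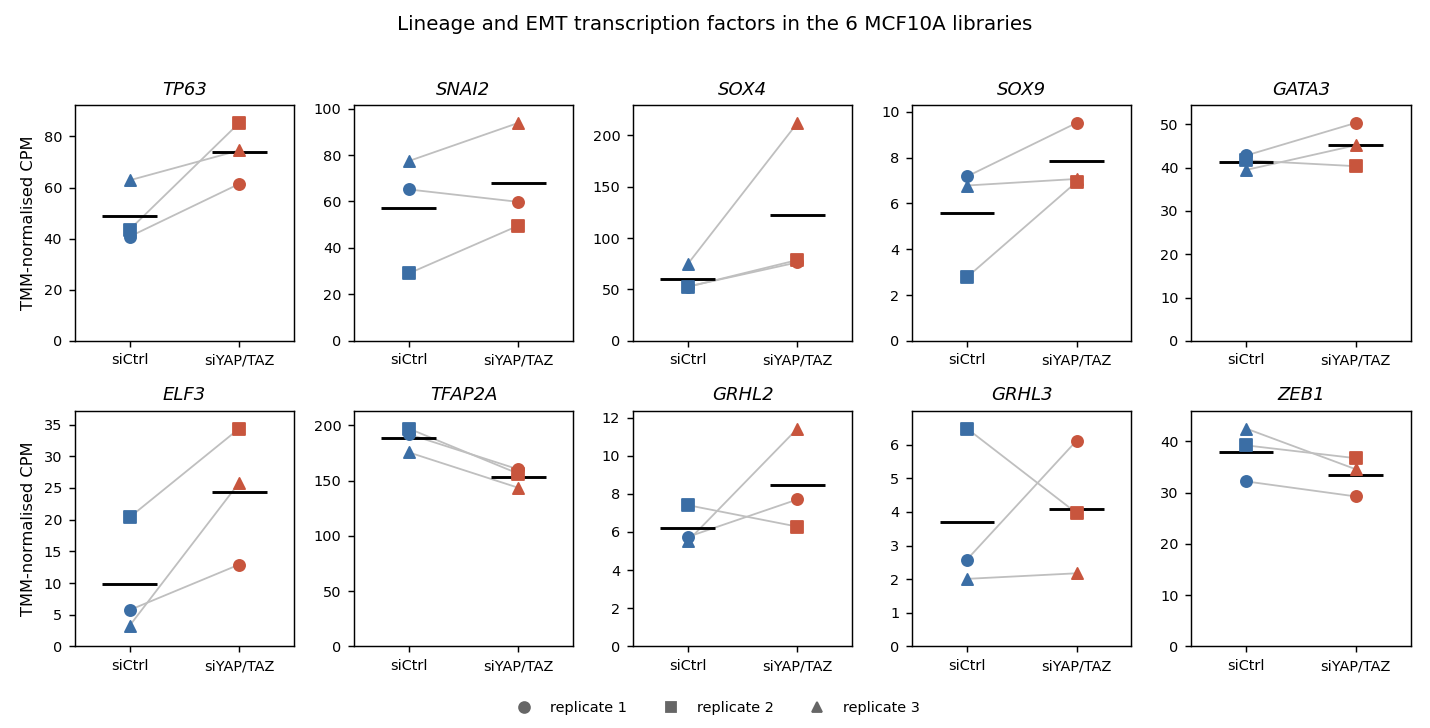
TMM-normalized CPM (vertical axes, from 0) of the 10 factors in siCtrl and siYAP/TAZ, with 1 symbol per library, a bar at each group mean and gray lines joining libraries of the same replicate number. The lines all rise for TP63, SOX4, SOX9 and ELF3 and all fall for TFAP2A and ZEB1, and the groups are apart only for SOX4 and TFAP2A.

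GATA3, the zinc finger factor of the luminal lineage, lies at chr10:8087341-8117161 (GRCh37, plus strand). It was the steadiest of the 10 factors in siCtrl relative to its level, at 42.8, 41.7 and 39.5 CPM, and it was at 50.3, 40.3 and 45.1 CPM in siYAP/TAZ. Replicate 2 of siYAP/TAZ lay within the siCtrl range, whereas siYAP/TAZ replicates 1 and 3 lay above it. The log2 fold change was 0.14 with an interval of -0.20 to 0.47 (edgeR, adjusted p = 0.686), and the change was 0.051 without siYAP/TAZ replicate 1. The antisense gene GATA3-AS1, which overlaps GATA3, had 2 counts in 1 library and 0 in the other 5.

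ELF3, the epithelium-specific ETS factor of luminal cells, lies at chr1:201977073-201986311 (GRCh37, plus strand). Its levels were 5.74, 20.4 and 3.27 CPM with siCtrl against 12.9, 34.4 and 25.8 CPM with siYAP/TAZ. Replicate 2 was the highest library in both groups, and the groups overlapped through siCtrl replicate 2 alone. Means were 9.79 ± 9.24 and 24.4 ± 10.8 CPM, and the log2 fold change was 1.33 with an SE of 0.58 and an interval of 0.02 to 2.64 (edgeR, adjusted p = 0.276). In pairs of the same number, siYAP/TAZ was 2.25, 1.69 and 7.91 times siCtrl for replicates 1, 2 and 3.

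ELF3 passed the test in 3 other fits. With the block the change was 1.49, SE 0.35, with an interval of 0.70 to 2.27 (edgeR, adjusted p = 0.0250). Without siCtrl replicate 2 it was 2.43, SE 0.45 (edgeR, adjusted p = 0.00750), a fit in which ELF3 was the 1 of 10 factors to pass and 12.3% of all genes passed. That fit left out the siCtrl library with the most ELF3 but kept siYAP/TAZ replicate 2, the highest of its group. Without both libraries with conflicting titles the change was 2.11 (edgeR, adjusted p = 0.0134), where again ELF3 alone of the 10 passed and 9.29% of all genes did. In DESeq2 the change of 1.31 had an adjusted p of 0.509.

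TFAP2A, an AP-2 factor of ectodermal epithelia, lies at chr6:10393419-10419892 (GRCh37, minus strand). It had the highest mean of the 10 factors in both groups, at 192, 197 and 176 CPM with siCtrl against 160, 156 and 144 CPM with siYAP/TAZ. All siYAP/TAZ libraries lay below all siCtrl libraries, and the ratio within pairs was close in all 3, at 0.834, 0.793 and 0.818. Means were 188 ± 11.3 and 153 ± 8.70 CPM, so siYAP/TAZ stood at 81.5% of siCtrl, and the log2 fold change was -0.30 with an SE of 0.12 and an interval of -0.57 to -0.02 (edgeR, adjusted p = 0.251). With the block the adjusted p from edgeR was 0.113. The antisense gene TFAP2A-AS1 had 4 to 7 counts a library against 473 to 707 for TFAP2A.

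SOX4 and TFAP2A were the 2 of 10 factors whose groups did not overlap, where the groups did not overlap for 22.1% of all tested genes. The direction was the same in all 3 pairs for 6 of 10 factors, higher for TP63, SOX4, SOX9 and ELF3 and lower for ZEB1 and TFAP2A, and this held for 46.1% of all tested genes, 23.3% higher and 22.8% lower.

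GRHL2 and GRHL3 are Grainyhead-like factors of epithelial barrier and junction genes. GRHL2 (GRCh37, chr8:102504667-102681954, plus strand) was at 5.74, 7.41 and 5.53 CPM with siCtrl against 7.71, 6.28 and 11.4 CPM with siYAP/TAZ. GRHL3 (GRCh37, chr1:24526048-24690972, plus strand) was at 2.58, 6.48 and 2.01 CPM with siCtrl against 6.12, 3.97 and 2.18 CPM with siYAP/TAZ. Both genes had groups that overlapped, with replicate 2 lower in siYAP/TAZ than in siCtrl and replicates 1 and 3 higher. The log2 fold change of GRHL2 was 0.45 with an interval of -0.25 to 1.16 (edgeR, adjusted p = 0.492), and that of GRHL3 was 0.20 with an interval of -0.99 to 1.39 (edgeR, adjusted p = 0.882). GRHL2 was at 0.18 without siYAP/TAZ replicate 3 and at 0.75 without both libraries with conflicting titles, and GRHL3 turned to -0.12 when siCtrl replicate 3 was left out and to -0.26 when siYAP/TAZ replicate 1 was. GRHL3 rested on 8 to 27 counts a library and overlaps STPG1 on the opposite strand, which had 26 to 50 counts, and as the sources used here do not give the strand setting of the counting, its counts are uncertain.

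ZEB1, a zinc finger repressor of epithelial genes, lies at chr10:31607424-31818742 (GRCh37, plus strand). It was at 32.2, 39.2 and 42.5 CPM with siCtrl against 29.2, 36.7 and 34.5 CPM with siYAP/TAZ. The siYAP/TAZ library was the lower one in all 3 pairs while the groups overlapped. Means were 37.9 ± 5.26 and 33.5 ± 3.84 CPM, with a log2 fold change of -0.19 and an interval of -0.57 to 0.20 (edgeR, adjusted p = 0.627), and it was -0.095 when siCtrl replicate 3 was left out and -0.093 when siYAP/TAZ replicate 1 was. The antisense gene ZEB1-AS1, which overlaps its start, had 2 to 11 counts a library.

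**Figure D3:**
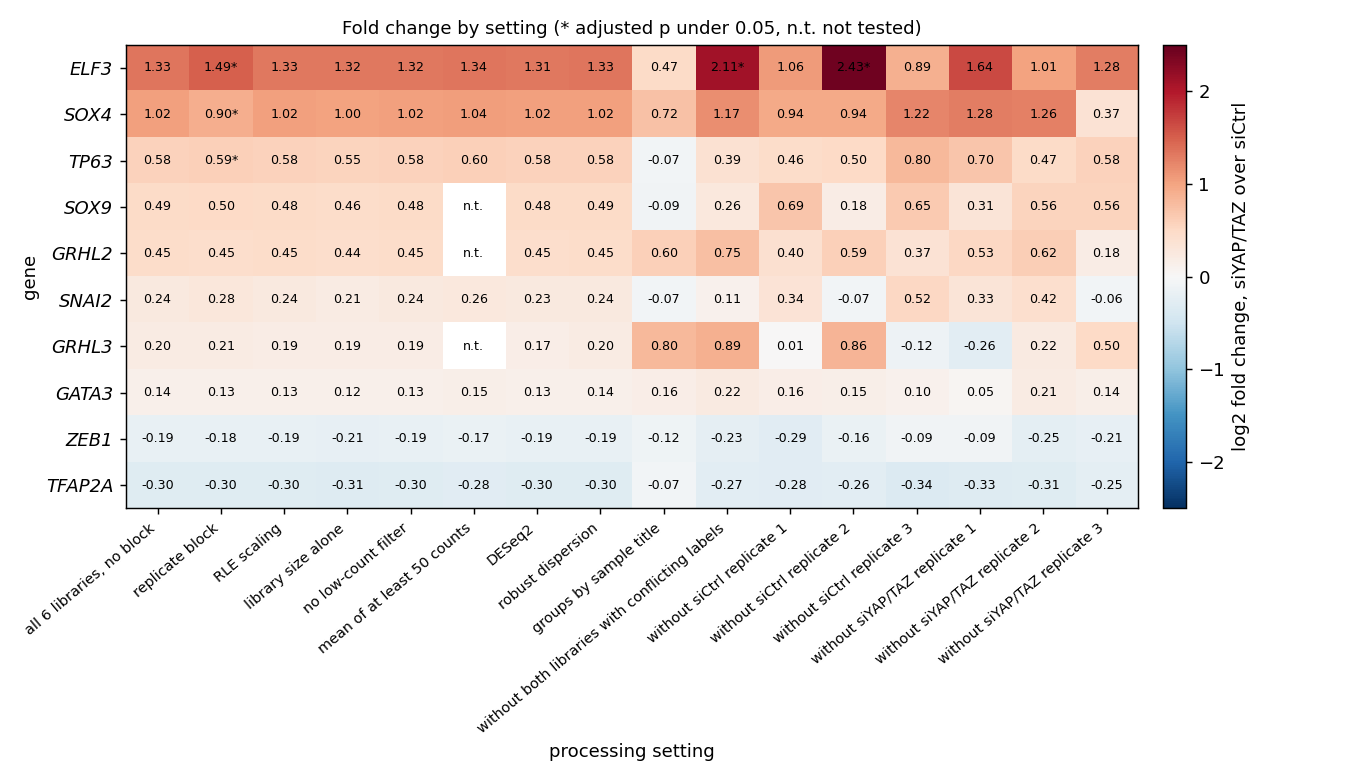
log2 fold change (siYAP/TAZ over siCtrl, color and number in each cell) of the 10 factors under each processing setting, with a star where the adjusted p was under 0.05. ELF3 ranged from 0.47 to 2.43 and was positive in every setting shown, ZEB1 and TFAP2A were negative in every setting shown, and SNAI2, GRHL3, TP63 and SOX9 changed sign in at least 1.

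In siCtrl the order of mean levels, from highest to lowest, was TFAP2A, SOX4, SNAI2, TP63, GATA3, ZEB1, ELF3, GRHL2, SOX9 and GRHL3. Since 3′ reads give about 1 read per transcript, these CPM were compared between genes without division by length. Among the 9 neighbors in that order, 2 were separate over the 3 libraries: TFAP2A over SOX4, where the lowest TFAP2A library was at 176 and the highest SOX4 library at 74.9 CPM, and ZEB1 over ELF3, at 32.2 and 20.4 CPM. The other 7 neighbors overlapped. In siYAP/TAZ the order differed only by TP63 standing above SNAI2, 2 genes whose libraries overlapped. There 3 neighbors were separate: GATA3 over ZEB1 (40.3 and 36.7 CPM), ELF3 over GRHL2 (12.9 and 11.4 CPM) and SOX9 over GRHL3 (6.94 and 6.12 CPM). ELF3 then overlapped ZEB1 through 1 library, at 34.4 CPM. SOX4 overlapped TFAP2A in siYAP/TAZ through replicate 3, the library with 212 CPM of SOX4.

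**Figure D4:**
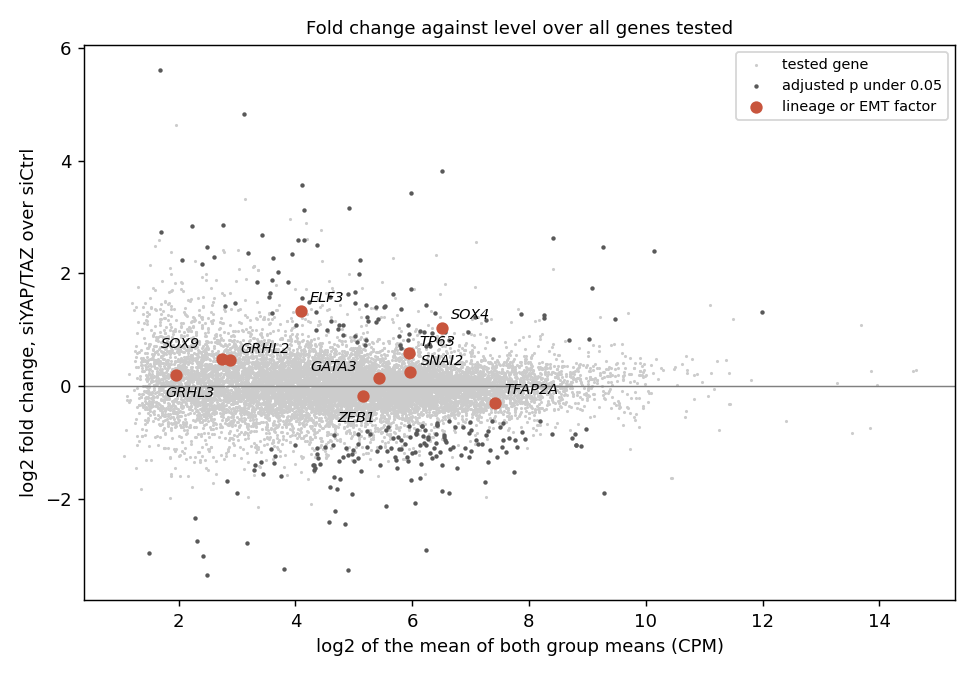
log2 fold change (siYAP/TAZ over siCtrl, vertical axis) against the log2 of the mean CPM of both group means (horizontal axis) for the 12510 tested genes, dark where the adjusted p was under 0.05. The 10 factors are labeled and none of them is among the 245 dark points.

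A separate test of the replicate number itself, run after the data had been seen, asked which genes differed between replicate numbers across both groups. SOX4 and SNAI2 passed it (edgeR, adjusted p = 0.0464 for each), where 1.81% of all genes did. SNAI2 spanned 2.67-fold among the siCtrl libraries and 1.89-fold among the siYAP/TAZ libraries, in the same order of replicates. ELF3 spanned 6.23-fold among the siCtrl libraries (edgeR, adjusted p = 0.121 for the replicate number). What the replicate numbers share, such as a day or a passage, is not given in the labels used here.

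For the 2 factors with the smallest p, the 3 genes with the most similar profile over the 6 libraries were taken from 8912 genes with a mean of at least 50 counts, by the Euclidean distance between log2 CPM centered on their mean. For TP63 these were TEAD2, a DNA-binding partner of YAP and TAZ, at a distance of 0.274, then CKMT1B, which has a near-identical copy and is uncertain, at 0.301, and FAM219B at 0.318. TEAD2 was at 18.4, 19.7 and 28.6 CPM with siCtrl against 27.9, 31.4 and 31.3 CPM with siYAP/TAZ. For SOX4 they were a gene with Entrez ID 244, which was not matched to a symbol, at 0.574, the kinase gene PAK3 at 0.582 and HEG1 at 0.673. PAK3 was at 28.7, 28.7 and 60.8 CPM with siCtrl against 45.6, 50.9 and 102 CPM with siYAP/TAZ, with replicate 3 the highest in both groups as for SOX4.

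Relatives of the 10 factors in the same families were listed as a group of 33, of which 17 were tested and the other 16 had at most 15 counts in any library. Their median log2 fold change was 0.19. EHF, like ELF3 an epithelium-specific ETS factor, rose and ETS1 fell, and the other 15 did not pass. EHF was at 39.6, 34.3 and 15.1 CPM with siCtrl against 111.5, 113 and 66.4 CPM with siYAP/TAZ, with all siYAP/TAZ libraries above all siCtrl libraries, and its log2 fold change was 1.72, SE 0.33 (edgeR, adjusted p = 0.0350). ETS1, an ETS factor of mesenchymal and immune cells, was at 52.8, 32.4 and 45.2 CPM against 19.7, 16.5 and 20.4 CPM, again with no overlap, and its log2 fold change was -1.20, SE 0.21 (edgeR, adjusted p = 0.0265). Both calls were lost when any 1 library other than siCtrl replicate 2 was left out, with log2 fold changes of 1.39 to 1.99 for EHF (edgeR, adjusted p from 0.0509 to 0.111) and -1.25 to -1.04 for ETS1 (edgeR, adjusted p from 0.0623 to 0.139). DESeq2 passed both EHF and ETS1 as well (adjusted p = 1.9e-05 and 0.000503). ETS2 had means of 195 and 192 CPM (edgeR, adjusted p = 0.982).

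With the block 3 relatives rose and 2 fell. Beside EHF these were SOX5, at means of 13.2 and 29.3 CPM (edgeR with the block, adjusted p = 0.00706), and ZEB2, the paralog of ZEB1, at 8.86 and 22.1 CPM with overlapping groups (edgeR with the block, adjusted p = 0.0240). TFAP2C, the AP-2 relative of TFAP2A, fell beside ETS1, from a mean of 32.4 to 16.7 CPM (edgeR with the block, adjusted p = 0.0119). Without a block, DESeq2 also passed SOX5 and TFAP2C (adjusted p = 0.0105 and 0.0299) but not ZEB2 (adjusted p = 0.101). SNAI1 was at most at 3.73 CPM in any library and was not tested by edgeR.

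A list of 34 other transcription factors of these cells had 26 members tested, a median of -0.06 and 0 that passed by edgeR. At an unadjusted p under 0.05, 3 of the 26 were lower and 0 higher. With the block HMGA2 and ETV5 fell, and DESeq2 passed neither (adjusted p = 0.0602 and 0.0934). HMGA2, a chromatin protein of progenitor and tumor cells, had means of 1083 and 713 CPM (edgeR, adjusted p = 0.163, and 0.0386 with the block).

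Genes of the lineages that these factors specify were counted in 4 further lists. Of 28 basal genes 26 were tested with a median of -0.17, and PERP, a desmosomal gene, rose while none fell. PERP was at 348, 515 and 433 CPM with siCtrl against 892, 898 and 1169 CPM with siYAP/TAZ, and all siYAP/TAZ libraries lay above all siCtrl libraries. Its log2 fold change was 1.19, SE 0.19 (edgeR, adjusted p = 0.0168). The call was lost when siCtrl replicate 1 or 3, or one of siYAP/TAZ replicates 2 and 3, was left out, at log2 fold changes of 1.05 to 1.26 (edgeR, adjusted p from 0.0505 to 0.114). S100A2 had means of 2259.9 and 2009.7 CPM (edgeR, adjusted p = 0.717), and KRT5 had a log2 fold change of -0.47 (edgeR, adjusted p = 0.131, and 0.0230 with the block). With the block KRT5 and LAMB3, a laminin gene of the basement membrane, were among the basal genes that fell, and PERP and FAT2 rose. Without a block, DESeq2 also passed PERP, LAMB3 and KRT5 (adjusted p = 2.8e-07, 0.0274 and 0.0384) but not FAT2 (adjusted p = 0.1005).

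Of 23 luminal genes 11 were tested with a median of 0.13, and KRT7, a simple keratin, fell while none rose. KRT7 was at 302, 265 and 292 CPM with siCtrl against 159, 134 and 147 CPM with siYAP/TAZ, a log2 fold change of -0.97, SE 0.13 (edgeR, adjusted p = 0.0107). The call was lost when siCtrl replicate 3 or either of siYAP/TAZ replicates 2 and 3 was left out, at log2 fold changes of -0.96 to -0.90 (edgeR, adjusted p from 0.0505 to 0.0852). With the block 3 luminal genes fell and 3 rose. ALDH1A3 (means of 182 and 88.9 CPM) and ANPEP (160 and 116 CPM) fell, with adjusted p from edgeR with the block of 0.00178 and 0.0481. Both had overlapping groups. MUC1, a mucin of luminal cells, was at 17.5, 42.6 and 19.3 CPM with siCtrl against 58.9, 113 and 61.2 CPM with siYAP/TAZ and rose with the block (edgeR, adjusted p = 0.000208). Without a block, DESeq2 also passed KRT7 and MUC1 (adjusted p = 4.9e-07 and 0.000618). ALDH1A3 and ANPEP did not pass by DESeq2 (adjusted p = 0.4996 and 0.242). MUC1 had its highest library of both groups in replicate 2, as had ELF3. LTF and SLPI, which also rose with the block, had it there too, so this was not particular to MUC1 and ELF3. The share of all genes with this pattern was not counted.

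Of 28 epithelial junction genes 25 were tested with a median of 0.12, and 0 passed by edgeR, with 2 lower and 2 higher at an unadjusted p under 0.05. With the block 3 fell and 2 rose. DSP, a desmosomal plaque gene, had means of 655 and 951 CPM with overlapping groups (edgeR, adjusted p = 0.247, and 0.0272 with the block). MAL2 had means of 335 and 244 CPM (edgeR, adjusted p = 0.224, and 0.0250 with the block). Of 27 mesenchymal genes 18 were tested with a median of -0.06, and SPARC, a secreted matrix protein, fell while none rose in the edgeR fit without the block. The other 9 had at most 41 counts in any library. Among these, TAGLN had 17, 5 and 41 counts with siCtrl against 1, 2 and 3 with siYAP/TAZ. TAGLN was lower by DESeq2 (adjusted p = 0.00821) and in edgeR without siCtrl replicate 2, where it was tested (adjusted p = 0.00382). SPARC was at 15.5, 17.3 and 20.4 CPM with siCtrl against 7.48, 7.60 and 7.34 CPM with siYAP/TAZ, a log2 fold change of -1.24, SE 0.23 (edgeR, adjusted p = 0.0304). The call was lost when any 1 library other than siCtrl replicate 2 was left out, at log2 fold changes of -1.33 to -1.13 (edgeR, adjusted p from 0.0605 to 0.162). With the block 3 mesenchymal genes fell and 2 rose. Beside SPARC, NT5E (means of 69.0 and 27.1 CPM) and SERPINE2 (40.8 and 25.2 CPM) fell (edgeR with the block, adjusted p = 0.000666 and 0.0242). S100A4 (10.4 and 24.2 CPM) and LOX (66.3 and 114 CPM) rose (edgeR with the block, adjusted p = 0.00722 and 0.0457). The groups overlapped for SERPINE2 and LOX, and in replicate 2 LOX was lower with siYAP/TAZ, at 108 CPM against 113 CPM with siCtrl. Without a block, DESeq2 also passed SPARC, NT5E and S100A4 in the same directions (adjusted p = 0.00687, 0.00507 and 0.00893). SERPINE2 and LOX did not pass by DESeq2 (adjusted p = 0.438 and 0.168). TGFBI had means of 704 and 996 CPM (edgeR, adjusted p = 0.486) and CALD1 of 382 and 484 CPM (edgeR, adjusted p = 0.276).

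**Figure D5:**
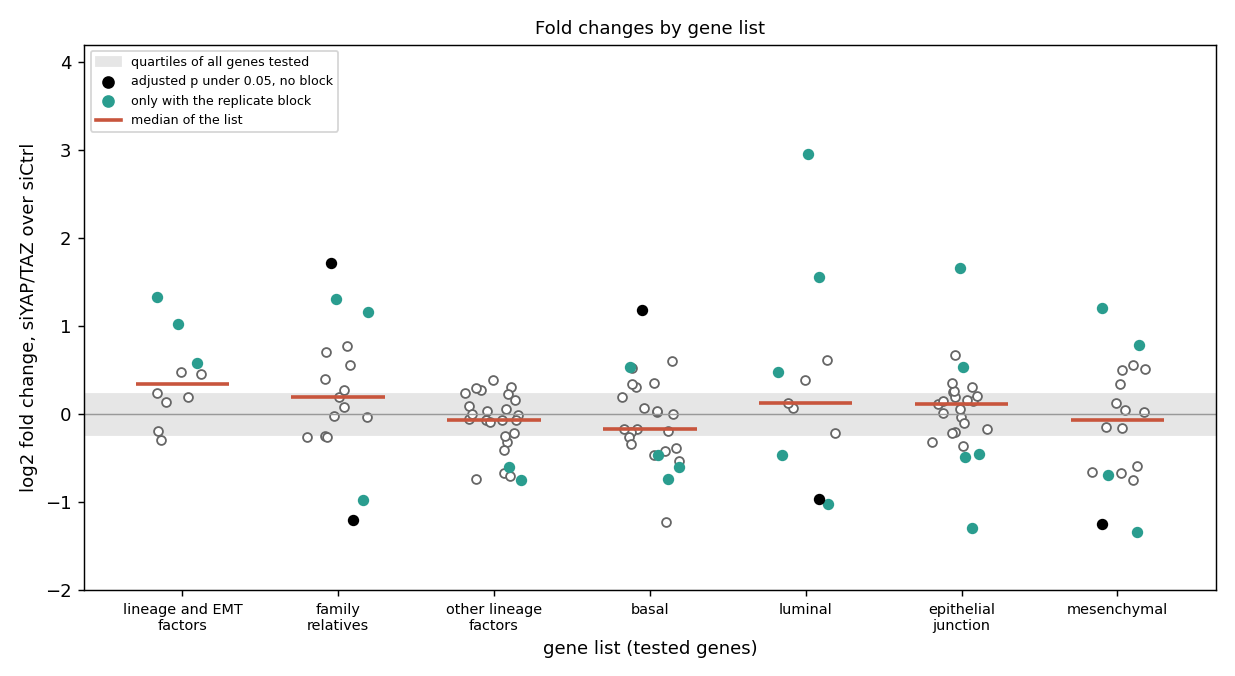
log2 fold change (siYAP/TAZ over siCtrl, vertical axis) of every tested gene of 7 lists, 1 point per gene, with a bar at the list median and gray shading between the quartiles of all tested genes. Black points passed the test, green points passed it only with the replicate block, and the list medians ran from -0.17 for basal genes to 0.35 for the 10 factors.

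Markers of cells that are not epithelial formed a list of 13, of which 3 were tested. Their summed level ranged from 214 to 219 CPM in siCtrl and from 219 to 242 CPM in siYAP/TAZ, nearly all of it PDGFRA, at means of 161 and 167 CPM, and RGS5, at 48.1 and 50.8 CPM. The other tested marker, PECAM1, was at means of 1.32 and 5.88 CPM. It rose with the block (edgeR, adjusted p = 0.0245) and by DESeq2 (adjusted p = 0.0406). The remaining 10 had at most 12 counts in any library, and COL3A1 and LYZ were among those at 0 in all 6. The part of other cell types in the levels of the 10 factors was not tested.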

How the data were processed

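RNA of 6 MCF10A libraries was measured by 3′ mRNA-Seq, which reads the 3′ end of polyadenylated transcripts. The authors deposited raw counts per Entrez gene with no normalization, and 0 columns of values were left unused. The submitters' processing notes name cutadapt 4.2, Bowtie2 2.3.5.1 and hg19. The gene annotation and the strand setting of the counting are not given in the sources used here. The study's methods call the replicates of its RNA-Seq biological, in a section on poly(A)-selected libraries rather than 3′ mRNA-Seq. The labels do not say which cultures the replicates used here came from. No 2 libraries of the same group held the same values or agreed within sampling noise. Libraries of different groups were not compared in this way.

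Symbols were matched by Entrez ID to RefSeq (GRCh38.p14, names only) for 23308 of 23459 genes, with 99.7% of the counts, and positions are from GENCODE on GRCh37. Counts were tested in R 4.3.3 with edgeR 4.0.16 (filterByExpr, TMM, quasi-likelihood test, Benjamini-Hochberg over all 12510 tested genes, threshold 0.05), a procedure that was first tested on simulated data. DESeq2 1.42.0 and 14 other settings were tried as alternatives. The replicate numbers, which come from the descriptions and column names, were used to pair the libraries. Deviations of same-numbered libraries from their group means correlated with r = 0.40, 0.33 and 0.13 for replicates 1, 2 and 3, against -0.35 to 0.04 for the other pairings. Deviations within a group depend on each other, so these correlations are not independent and cannot settle whether the libraries were paired. A pairing by the replicate numbers of the titles was not tried. Intervals cover the spread between libraries, and the limit of 3 counts covers counting error only.

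The 10 factors and the gene lists were chosen with earlier results of these data known. All 10 factors are named whatever their values. From each list, up to 6 genes with the smallest p among those that passed are named, or, where fewer than 3 passed, those and the genes with the highest mean CPM up to 3. Other list genes are named because they passed with the replicate block, and were chosen after their values were seen, as were SNAI1 and TAGLN. No table of comparisons by the authors was used. Some list genes are not reported here.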

Additional observations from a re-analysis of the deposited data

How the results depend on the processing

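By edgeR 245 genes passed the test (152 lower and 93 higher). The count was 1263 with the replicate block, 556 with no low-count filter, 578 by DESeq2, 1183 without both libraries whose titles conflict, and 0 with groups taken from the titles, where 464 genes had an unadjusted p under 0.05. Leaving out 1 library gave 16 (without siCtrl replicate 3) to 1579 genes (without siCtrl replicate 2). Of the 10 factors 0 passed, against 3 with the replicate block, 1 without both libraries with conflicting titles and 0 to 1 when 1 library was left out. The minimum of a mean of 50 counts dropped SOX9, GRHL2 and GRHL3.

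With groups taken from the titles, the log2 fold change was -0.070 for TP63, -0.085 for SOX9, -0.073 for SNAI2, 0.36 for ETS2, -0.022 for PDGFRA, -0.017 for RGS5, -0.32 for PECAM1 and 0.25 for KRT17, and the list median was -0.040 for the family relatives, 0.082 for basal, -0.071 for luminal, 0.016 for mesenchymal and -0.022 for non-epithelial genes. With 1 library left out, SNAI2 ran from -0.069 to 0.52 (negative without siCtrl replicate 2 or siYAP/TAZ replicate 3) and GRHL3 from -0.26 to 0.86 (negative without siCtrl replicate 3 or siYAP/TAZ replicate 1). ETS2 ran from -0.38 to 0.71, RGS5 from -0.20 to 0.22, PDGFRA from -0.017 to 0.10 and KRT14 from -0.59 to 0.11. The medians ran from -0.12 to 0.0060 for the other factors, from -0.22 to 0.028 for basal and from -0.38 to 0.077 for mesenchymal genes. At a mean of at least 50 counts the median was 0.0052 for the other factors and 0.066 for mesenchymal genes, and without both libraries with conflicting titles it was 0.032 for basal genes and the log2 fold change of ETS2 was 0.36. With the replicate block ETS2 was at 0.091. The cause was not tested. The block changed no call for the other 7 factors. Scaling by relative log expression or by library size alone changed no call among the 10 factors.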
